A study of Mus musculus with 2 samples.

Results

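The mt-Nd5 and mt-Nd6 genes of mouse mitochondrial DNA face each other from opposite strands, and the sites of the RNA-binding protein LRPPRC along both genes are described here. Sites were taken when they overlapped the annotated body of mt-Nd5 (positions 11742 to 13565, plus strand) or of mt-Nd6 (13552 to 14070, minus strand) by at least 1 nt on either strand, with positions on the mm10 build and genes from GENCODE vM21. This gave 6 of the 48 mitochondrial sites and of the 552 sites in all. The 6 sites were on the plus strand, and 0 were on the minus strand. The frames do converge as named, since they end 14 bases inside each other.

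The sites came from PAR-CLIP of mouse embryonic fibroblasts (MEFs), cultured connective-tissue cells, from transgenic mice carrying LRPPRC with a FLAG tag. The labels list induction of its expression with 2 µg/ml doxycycline for 72 h. The published methods mention this induction after describing HeLa Tet-On cells, and do not say whether it also applied to the MEFs. In PAR-CLIP, cells take up 4-thiouridine, ultraviolet light bonds this uridine analogue to a bound protein, the tagged protein is pulled down, and the bonded uridine is then read as C. The series held 1 experimental and 1 control sample under the same growth and induction protocol, and the labels do not say what else set the control apart. The sites of the experimental library are described. The list holds no expression values, so the cell label could not be checked against markers. The control was not analysed here, so no background was measured in it, and with 1 library no value below has a spread between replicates or a test.

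Complex I, the NADH dehydrogenase of the respiratory chain, takes some of its subunits from mitochondrial DNA, among them ND5 and ND6, which both lie in its membrane arm. ND5 belongs to the antiporter-like subunits that pump protons, and ND6 is the only protein encoded on the strand that carries few genes. Mitochondrial DNA is transcribed as long RNAs from both strands, from which the tRNAs are cut out, and LRPPRC is known for keeping the polyadenylated mRNAs stable together with its partner SLIRP. In mammals the Nd6 mRNA carries no poly(A) tail, and the Nd5 mRNA runs past its stop codon into sequence antisense to Nd6.

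The sequences of the 5 sites that lie in mt-Nd5 or across its 5′ end are shown first, because the contents of sites and gaps are compared below. They are read 5′ to 3′ on the plus strand of mm10, and each T, which is a U in the RNA and the only base that can hold the crosslink, is in capitals. Site 1 (chrM:11713-11852) begins in the tRNA gene mt-Tl2, and the ATC start codon of mt-Nd5 is at its bases 30 to 32. Site 2 is at chrM:11958-12046, site 3 at chrM:12236-12426, site 4 at chrM:12538-12634 and site 5 at chrM:13319-13479, all within the coding sequence.
Site 1: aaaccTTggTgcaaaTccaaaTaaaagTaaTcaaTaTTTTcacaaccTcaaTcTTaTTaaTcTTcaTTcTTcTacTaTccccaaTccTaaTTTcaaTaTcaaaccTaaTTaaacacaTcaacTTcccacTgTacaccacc
Site 2: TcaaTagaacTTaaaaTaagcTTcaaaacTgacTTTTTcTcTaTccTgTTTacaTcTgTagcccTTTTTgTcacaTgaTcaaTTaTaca
Site 3: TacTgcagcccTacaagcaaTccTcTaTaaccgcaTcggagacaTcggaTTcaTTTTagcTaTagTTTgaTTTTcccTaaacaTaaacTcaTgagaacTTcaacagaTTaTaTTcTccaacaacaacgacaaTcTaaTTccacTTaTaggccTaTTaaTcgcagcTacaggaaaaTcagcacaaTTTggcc
Site 4: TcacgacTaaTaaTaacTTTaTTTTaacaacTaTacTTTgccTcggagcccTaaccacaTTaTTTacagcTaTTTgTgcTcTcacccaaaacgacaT
Site 5: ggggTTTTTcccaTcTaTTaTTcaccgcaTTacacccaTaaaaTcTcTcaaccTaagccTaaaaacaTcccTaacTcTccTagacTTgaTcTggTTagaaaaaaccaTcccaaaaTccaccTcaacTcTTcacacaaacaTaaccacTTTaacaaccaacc

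For comparison, 150 bases from the middle of the longest stretch without a site (chrM:12902-13051) and the whole of the shortest one (chrM:13480-13515) are given in the same way.
Longest gap, middle: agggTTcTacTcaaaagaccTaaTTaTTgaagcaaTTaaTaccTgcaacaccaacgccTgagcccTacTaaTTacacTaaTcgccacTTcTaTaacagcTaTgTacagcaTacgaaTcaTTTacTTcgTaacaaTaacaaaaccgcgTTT
Shortest gap: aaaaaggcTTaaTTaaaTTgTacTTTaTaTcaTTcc

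Site 6 spans the place where the frames meet. The bases around it (chrM:13544-13573) are printed on both strands with the 14 shared bases in capitals. On the plus strand these end in the TAA stop codon of mt-Nd5, and on the minus strand they end in the TAA stop codon of mt-Nd6.
Plus strand: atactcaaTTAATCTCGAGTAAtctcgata
Minus strand: tatcgagaTTACTCGAGATTAAttgagtat

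The first 90 bases of the mt-Nd6 coding sequence (chrM:13981-14070, minus strand, from its ATG) show how rich in U this RNA is, with 44 of the 90 bases being T, again in capitals.
mt-Nd6: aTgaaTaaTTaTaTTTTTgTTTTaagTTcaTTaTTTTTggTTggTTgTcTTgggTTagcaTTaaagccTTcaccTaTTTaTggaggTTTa

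Most of the mt-Nd5 frame lay outside sites. The gene had 6 sites, more than any of the other 10 mitochondrial mRNAs, and these covered 699 of its 1824 bases. This share of 38.3% had a 95% Wilson interval of 36.1 to 40.6%. The interval covers counting error only and treats neighbouring bases as independent, although they are not. The share was the lowest of the 10 mRNAs encoded on the plus strand, each counted over its annotated gene body. The other 9 had 67.6% of their 9009 bases in sites, and the whole plus strand had 51.2%. The shares nearest to that of mt-Nd5 were 41.8% in mt-Co1, encoding a subunit of cytochrome c oxidase, and 43.4% in mt-Nd3, another complex I mRNA.

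**Figure D1:**
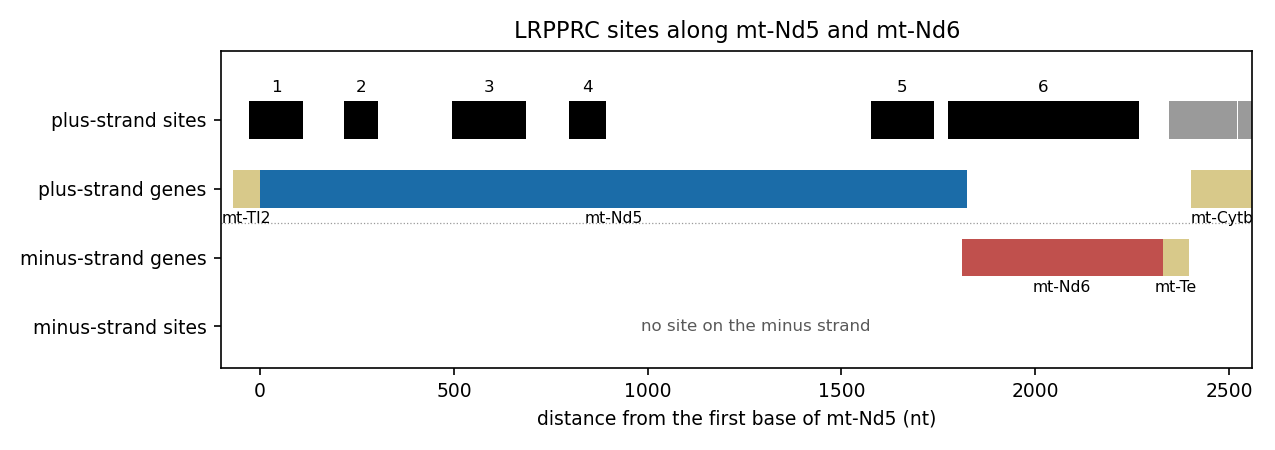
Sites of LRPPRC (black, numbered 1 to 6; grey, the sites that follow) and genes by strand, against the distance in nt from the first base of mt-Nd5. Sites 1 to 4 lie between 29 nt before mt-Nd5 and its base 893, an empty stretch of 684 nt follows, and site 6 runs 445 nt beyond the end of the mt-Nd5 frame, opposite mt-Nd6.

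The sites fell into a 5′ group and a 3′ group. Site 1 was 140 nt wide, with 29 bases in mt-Tl2, the tRNA cut from the 5′ side of mt-Nd5, and 111 bases in codons 1 to 37. Site 2 was 89 nt wide and lay in codons 73 to 102. Site 3 was 191 nt wide, the most bases that any site had in mt-Nd5, and lay in codons 165 to 229. Site 4 was 97 nt wide and lay in codons 266 to 298. The 3′ group began at codon 526 with site 5, which was 161 nt wide and reached codon 580. Site 6 took up the last 50 bases of the frame, from codon 592 to the stop at codon 608. Apart from site 6, which was 495 nt wide, the sites of mt-Nd5 ranked from 16 to 33 in width among the 39 plus-strand sites.

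The gaps between these sites were unequal. From 5′ to 3′ they measured 105, 189, 111, 684 and 36 nt. The gap of 684 nt, at positions 12635 to 13318 or codons 298 to 526, took up 37.5% of the gene and held 60.8% of its uncovered bases. The only longer gap in an mRNA was one of 769 nt in mt-Co1, and the longest gap in each of the other 8 plus-strand mRNAs was between 26 and 234 nt. With the longest gap of each mRNA set aside, the mt-Nd5 gene body was still the least covered of the 10. It had 61.3% against 67.0% in mt-Cytb and 70.9% in mt-Nd3, the next in order. With the gene divided into 3 equal parts from 5′ to 3′, sites covered 51.6%, 28.6% and 34.7% of mt-Nd5.

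**Figure D2:**
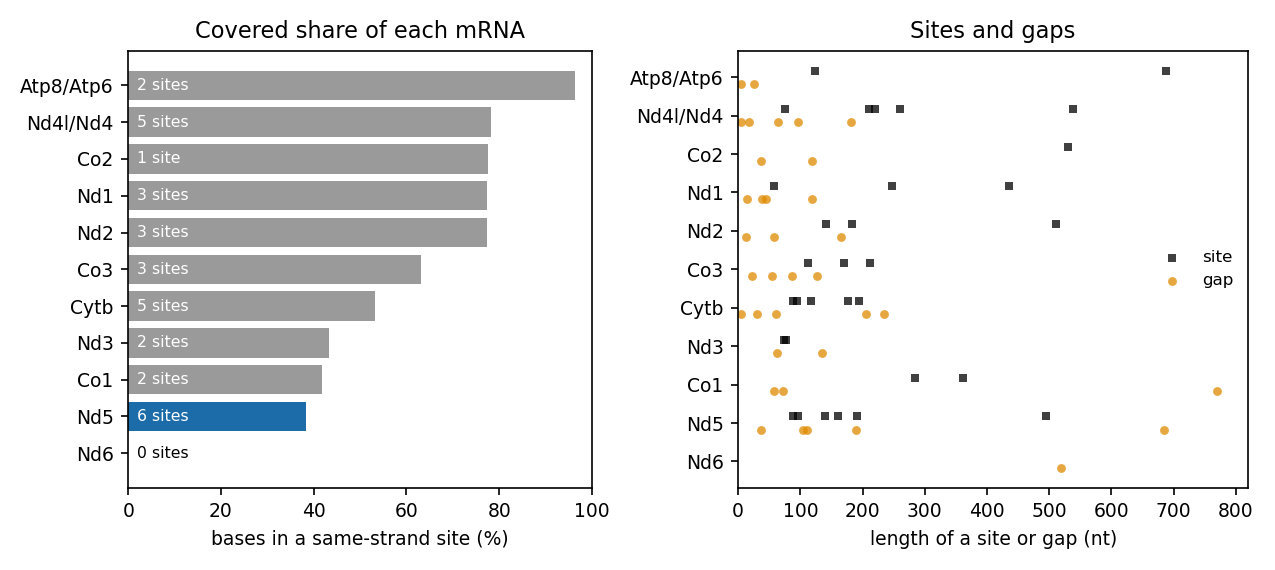
Left, bases of each mRNA in a site on the same strand (%), with the number of sites. Right, length in nt of each of these sites (black squares) and of each stretch without a site (orange circles). mt-Nd5 (blue) had 6 sites, the lowest share of the plus-strand mRNAs over annotated gene bodies, and a gap of 684 nt, and mt-Nd6 had 0 sites.

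Among the annotated gene bodies of the mitochondrial mRNAs for complex I, those of mt-Nd5 and mt-Nd6 were the least covered. The joined mt-Nd4l/mt-Nd4 mRNA had 78.2% of its bases in 5 sites, mt-Nd1 had 77.4% in 3 sites, mt-Nd2 had 77.4% in 3 sites and mt-Nd3 had 43.4% in 2 sites. The number of sites per length was not low in mt-Nd5. It had 3.29 sites per kb, the fourth highest of the 10 plus-strand mRNAs, against 5.75 in mt-Nd3 and 1.29 in mt-Co1. Its sites were narrower at the median, at 150.5 nt, than those of mt-Nd4l/mt-Nd4 (220 nt) or mt-Nd1 (248 nt), and wider than those of mt-Cytb (117 nt) or mt-Nd3 (75.5 nt).

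Both ends of the mt-Nd5 frame lay in a site. All 50 of its first bases and all 50 of its last bases were covered. The start codon was in a site in 6 of the 10 plus-strand mRNAs (mt-Nd2, mt-Atp8/mt-Atp6, mt-Nd3, mt-Nd4l/mt-Nd4, mt-Nd5 and mt-Cytb), whereas the last 3 annotated bases were in a site in 1 of the 10, mt-Nd5. This count was chosen after the site positions had been seen. It may also set unlike positions side by side, since the mt-Nd5 mRNA runs on past its stop codon, where site 6 continues. How far the other mRNAs extend beyond their last annotated base was not examined.

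The plus strand beyond the mt-Nd5 stop codon was covered more densely than the frame itself. Site 6 (chrM:13516-14010) was the fifth widest of the 39 plus-strand sites. It started 49 nt before the last base of mt-Nd5, took in all 14 bases shared by the frames, and went on for 445 nt, so that 89.9% of it lay beyond the stop codon. Opposite mt-Nd6 it covered 459 of 519 bases (88.4%), and ended 60 nt short of the position facing the mt-Nd6 start. When the antisense stretch was counted with mt-Nd5 as 1 RNA of 2329 bases, 1144 bases (49.1%) were covered, in place of 38.3% for the frame alone. Counted this way, mt-Nd5 was above mt-Co1 (41.8%) and mt-Nd3 (43.4%), which were still counted over their gene bodies alone. The end of the longer RNA was set at the last base opposite mt-Nd6 and was not measured. Its place as the least covered plus-strand mRNA therefore holds for the annotated frame and not for this longer RNA.

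After site 6 came a gap of 75 nt, of which 15 bases faced mt-Te, the tRNA gene on the 5′ side of mt-Nd6 on the minus strand. The next site (14086 to 14261) covered 54 bases opposite mt-Te and the first 117 bases of mt-Cytb, the cytochrome b mRNA. It began 15 bases past mt-Nd6 and so was not counted among the 6, and the nearest site on the other side ended 215 bases before mt-Nd5. From the start of site 5 to the end of that following site, 832 of 943 bases (88.2%) were covered. The 1577 bases of mt-Nd5 before site 5 were covered to 30.9%. Both stretches were bounded by edges of these same sites, and the second ended with the longest gap. Part of the contrast between them is therefore set by those bounds. The list does not tell whether the reads of site 6 came from the mature mt-Nd5 mRNA or from a longer precursor, since both have the same sequence here.

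Coverage opposite a minus-strand gene was not general. The other 8 genes of the minus strand are tRNA genes, and sites on the plus strand covered 126 of the 549 bases opposite them (23.0%). Of these 8, 5 faced no site. The other 3 were mt-Ta with 100% of its length facing a site, mt-Te with 78.3% and mt-Tn with 4.23%.

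No base of mt-Nd6 lay in a site on its own strand (0 of 519), and no base opposite mt-Nd5 did either. The minus strand had 7.16% of its bases in sites, in 9 sites 75 to 222 nt wide. All 1167 bases of these sites faced the span of the rRNA genes, between positions 127 and 2341. The nearest of them was 2355 nt away from the 5′ end of mt-Nd6, counted round the circular genome across the control region, and the last one ended 11210 nt before its 3′ end. As the list holds only sites past the thresholds of the caller and no read depth, it does not separate an unbound mt-Nd6 RNA from one that was read too thinly.

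The mt-Nd6 RNA was not short of uridine. U made up 43.7% of the mt-Nd6 RNA, against 40.4% in the 9 minus-strand sites, in which it ran from 34.7 to 45.3% by site, and 34.1% in the rest of the minus strand. Runs of at least 3 U occurred 4.62 times per 100 bases in mt-Nd6 and 4.71 times in the minus-strand sites. The longest stretch of mt-Nd6 without U was 11 nt, and that in the minus-strand sites was 10 nt. The mt-Nd6 RNA also had more G, at 28.1%, than the minus-strand sites, at 19.2%. Its mean predicted probability of being unpaired, computed by folding the strand in windows of 150 nt, was 0.431, and that of the minus-strand sites was 0.460, with a range of 0.374 to 0.503 by site. mt-Nd6 was within the range of the sites in both U and predicted pairing. The rest of the minus strand, which includes mt-Nd6, had a mean unpaired probability of 0.439, with 0.411 to 0.527 by stretch. The predicted pairing of mt-Nd6 was thus within both ranges and does not set it with either.

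**Figure D3:**
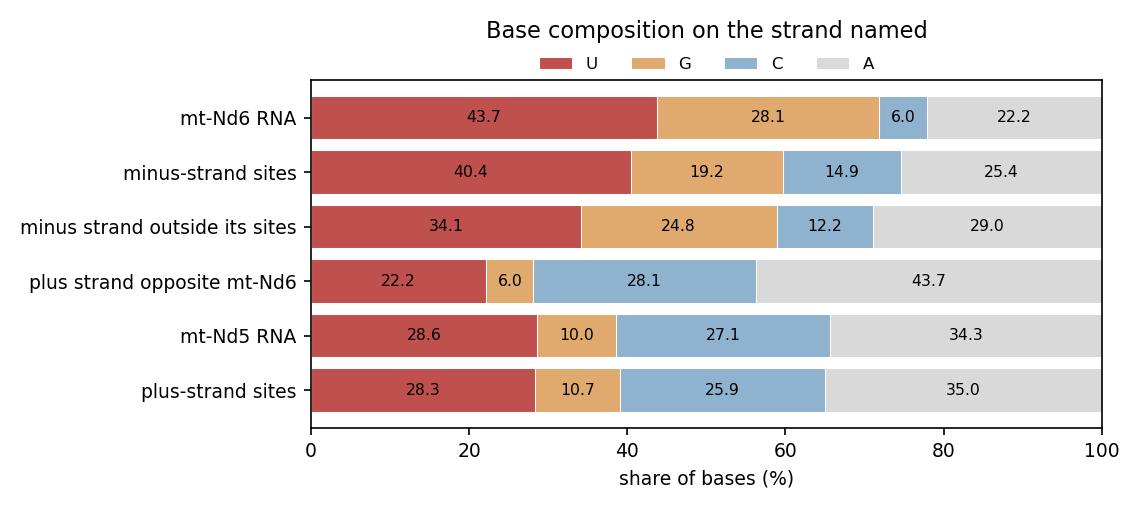
Share of U, G, C and A (% of bases, read on the strand named) in mt-Nd6, in the 9 minus-strand sites, in the rest of the minus strand, in the plus strand opposite mt-Nd6, in mt-Nd5 and in the 39 plus-strand sites. mt-Nd6 had 43.7% U and 0 sites, whereas the strand facing it had 22.2% U and was 88.4% covered.

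The opposite strand was the reverse. Facing mt-Nd6, the plus strand had 22.2% U, 43.7% A and 28.1% C, with 5.97% G. Site 6 had 23.8% U, the lowest of all 39 plus-strand sites, and 1 run of 3 or more U in its 495 nt. At 42.2% its A content was the third highest of the 39. Its mean unpaired probability was 0.775, against 0.419 for the minus strand facing it. The more widely covered strand of the pair was the one with less U and the higher predicted unpaired probability. The whole strands differed in the same direction, so this was not particular to the region. Outside their sites, the plus strand had 29.1% U and a mean unpaired probability of 0.566, and the minus strand 34.1% and 0.439. Sites covered 51.2% of the whole plus strand and 7.16% of the whole minus strand.

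Within mt-Nd5, U made up 30.8% of the 699 bases in sites and 27.2% of the 1125 bases outside, a difference of 3.56 percentage points (95% interval -0.74 to 7.86, for counting error only). The shares of U overlapped from piece to piece. Sites 1 to 5, taken whole, ranged from 24.8 to 38.2% and the 5 gaps from 23.4 to 38.9%, while site 6, with 445 of its 495 nt beyond the frame, had 23.8%. Runs of at least 3 U occurred 16 times in sites and 15 times outside, or 2.29 and 1.33 times per 100 bases. G was 8.01% in sites and 11.2% outside, while A (34.0 and 34.5%) and C (27.2 and 27.1%) were nearly equal. Leaving out sites narrower than the mitochondrial median of 147.5 nt turned the difference in U to -0.58 points. U was higher in sites than outside in 3 of the other 9 plus-strand mRNAs. Over the whole plus strand, U was 28.3% in sites and 29.1% outside. Runs of at least 3 U there occurred 1.57 and 1.71 times per 100 bases. More U in sites was thus not general on this strand.

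The long gap held 172 U in its 684 nt. This share of 25.1% was below the 28.6% of the whole gene and below sites 1 to 4, which had between 27.2 and 38.2%, and it was the second lowest of the 5 gaps. Site 5, which borders it, had 24.8% U, and site 6 had 23.8%. The longest stretch without U in the long gap was 17 nt, and that in the gap of 189 nt was 19 nt. It was 6 to 16 nt in sites 1 to 5 and 19 nt in site 6, most of which lies beyond the frame. The pieces differ in length, and a longer piece has more room for such a stretch. The shortest gap had the highest share of U of any site or gap in the gene, at 38.9%, and lay between sites 5 and 6. Site 2 was close to it, with 38.2%, the second highest among the 39 plus-strand sites.

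**Figure D4:**
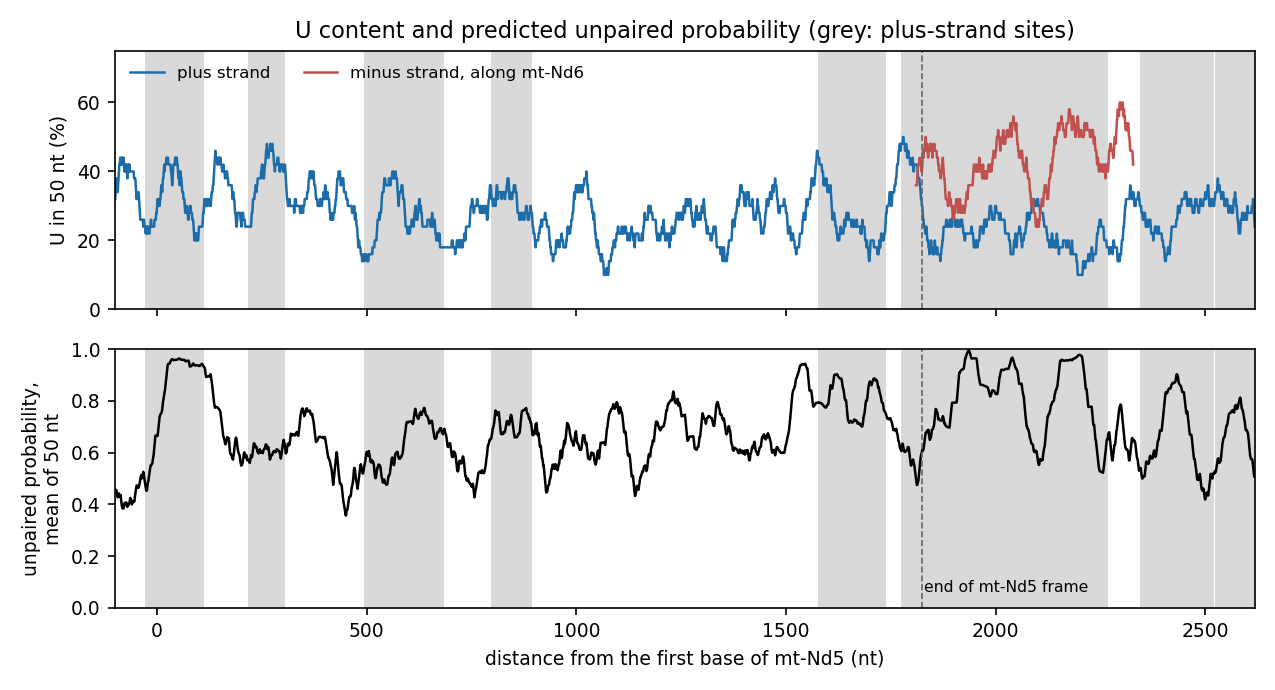
Top, U content (%) in sliding windows of 50 nt on the plus strand (blue) and, along mt-Nd6, on the minus strand (red). Bottom, mean predicted unpaired probability of the plus strand in the same windows. The horizontal axis is the distance in nt from the first base of mt-Nd5, grey bands are plus-strand sites, and the dashed line is the end of the mt-Nd5 frame. The plus strand beyond that line had less U than the minus strand and was mostly in site 6.

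Bases in sites of mt-Nd5 were predicted to be less paired than the others on average, but not piece by piece. The mean unpaired probability was 0.721 in sites and 0.653 outside, a difference of 0.07, with SDs over bases of 0.277 and 0.321. Leaving out sites narrower than the median of 147.5 nt lowered the difference to 0.0133, and leaving out site 3 raised it to 0.105. The same direction was seen in 8 of the other 9 plus-strand mRNAs, with the largest difference, 0.17, in mt-Nd4l/mt-Nd4, and the exception was mt-Co1. Site 1, at the start codon, had the highest value of all 39 plus-strand sites (0.848), followed by site 5 (0.801) and site 6 (0.775). These 3 sites, site 1 across the 5′ end of the frame and sites 5 and 6 of the 3′ group, were above every gap of the gene. Most of site 6 lies beyond the frame. Sites 2, 3 and 4, in the 5′ part of the frame, had 0.602, 0.631 and 0.711, within the range of the gaps, 0.555 to 0.711. The long gap had 0.673, more than sites 2 and 3.

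The sites with the highest unpaired probability were also poor in G. Site 1 had 3.57% G, the lowest of the 39 plus-strand sites, site 5 had 6.83% and site 6 had 5.66%. Site 3 had the most G of the 6, 13.1%. The part of base composition in the folding values was not tested.

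**Figure D5:**
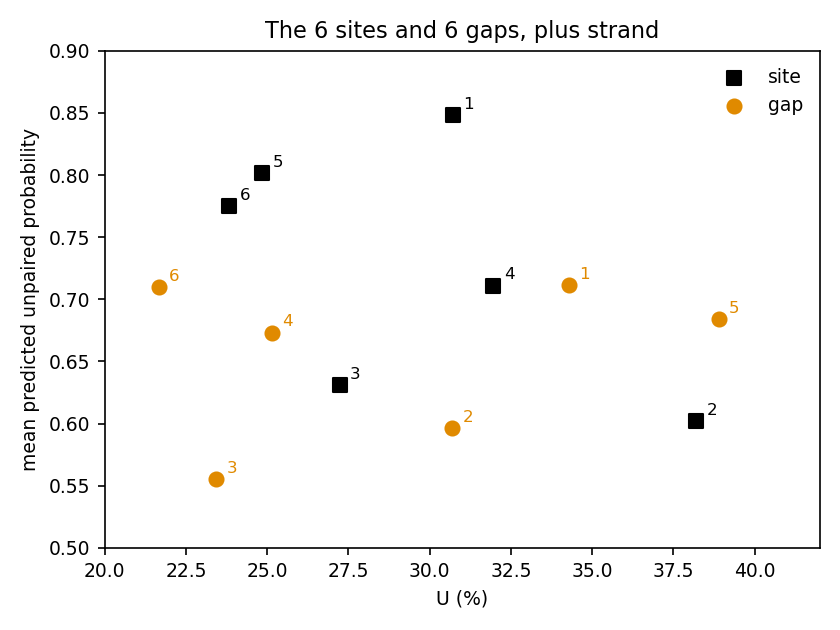
Mean predicted unpaired probability against U content (%) on the plus strand for sites 1 to 6 (black squares) and for gaps 1 to 6 (orange circles, numbered from 5′ to 3′, gap 6 being the last 60 nt opposite mt-Nd6). Sites and gaps overlapped in U, and sites 1, 5 and 6 lay above all gaps in unpaired probability.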

How the data were processed

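PAR-CLIP reads were processed by the authors as follows. Duplicates were removed by random barcodes, adapters were trimmed with cutadapt 1.10, and reads were aligned with Bowtie (version given as 1.12 in the submitters' processing notes) to mm10 with nuclear copies of mitochondrial DNA masked. BMix then called crosslinked regions on each strand. A region needs T-to-C changes and a minimum coverage, so RNA poor in U or thinly read could be missed. The deposited list gives position and strand, with 0 as name and score of all 552 sites, so the depth per site is unknown.

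Starts were read as 0-based. Sequence came from the RefSeq copy of mm10. Bases were counted with Python 3.11.15 and NumPy 2.4.6, and pairing was predicted with RNAplfold 2.7.2 on whole strands (windows of 150 nt, pairs up to 100 nt apart), which ignores RNA processing. The counting was tested on simulated intervals. No tests between groups were run. Every site and gap of the genes was named, and the other mitochondrial mRNAs, the neighbours and the minus-strand genes were used for comparison. The genes, lists and alternatives were chosen with earlier results of these data known.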

Additional observations from a re-analysis of the deposited data

How the results depend on the processing

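Of 27 alternative values, 20 stayed within the 95% interval of the value reported, 6 moved beyond it and 1 changed sign while staying within it. For the difference in unpaired probability this interval was 0.0249 to 0.112. These intervals treat neighbouring bases as independent, although they are not, so the counts sort the alternatives and do not measure stability. Several of the 20 could not have moved. Merging sites up to 20 nt apart joined none here, as the shortest gap was 36 nt. Ignoring strand added no site to mt-Nd5 or opposite mt-Nd6, and the width filter could not remove site 6. With 0 sites of its own, mt-Nd6 stayed at 0% under any change to its own-strand sites. When sites narrower than the mitochondrial median of 147.5 nt were left out, 3 of the 6 sites remained. The share of mt-Nd5 could then only fall, and it was 22.0%. The difference in U was -0.58 points and that in unpaired probability was 0.0133. For mt-Nd5 the share was 32.8% with 10 nt trimmed from both ends of each site, 54.1% in windows of 50 nt touched by a site, and 49.1% with the stretch opposite mt-Nd6. With strand ignored, mt-Nd6 had 88.4% of its bases in a site, all from site 6. Other alternatives left the 0% of mt-Nd6 unchanged, and the 88.4% opposite it was between 86.5 and 90.9% in those run. No paired analysis was possible because the sites came from a single library. The missing depth limits what can be said of uncovered RNA.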
